A study of Mus musculus and Homo sapiens with 56 samples.

Results

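The m6A profile of HEK293T cells carrying a short hairpin RNA against ALKBH5 (shALKBH5) was compared with that of HEK293T cells carrying a short hairpin RNA against GFP (shGFP). It consisted of 4 of the 6 deposited HEK293T m6A peak lists, 2 for shALKBH5 and 2 for shGFP, made from 8 of the 56 samples of the series (an immunoprecipitate and an input behind each list). The 4 lists merged into 26502 regions, and 11636 of these were held by all 4 lists. HEK293T is an established line from human embryonic kidney. Both groups were infected with lentivirus and selected with puromycin, so the shGFP cells share the vector, the infection and the selection, and GFP is a protein that human cells do not make. Chromatin-associated RNA was extracted, fragmented and pulled down with an antibody against m6A, and each immunoprecipitate was set against its input. Whether the replicates are separate infections or cultures, and how many hairpins were used, is in none of the labels, so p-values measure only the spread between these samples, which may be technical. Peak lists hold no expression values, and the loss of ALKBH5 RNA itself could not be checked here.

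N6-methyladenosine (m6A) is the most abundant internal modification of messenger RNA. It is written in the nucleus by a complex built around METTL3 and METTL14, read by YTH-domain proteins, and removed by the demethylases ALKBH5 and FTO. ALKBH5 is an iron- and alpha-ketoglutarate-dependent oxygenase that resides largely in the nucleus, where chromatin-associated RNA is found. The comparison asks where the deposited m6A signal on chromatin RNA differed between shALKBH5 and shGFP cells.

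Most of the m6A signal of the shALKBH5 cells lay at regions that the shGFP cells held too, and no region held by all 4 lists passed the test for a difference in enrichment or in width. The lists held 16211 and 20665 peaks in shALKBH5 replicates 1 and 2, and 19720 and 18745 peaks in shGFP replicates 1 and 2. The shALKBH5 lists were thus the shortest and the longest of the 4, and the groups overlapped. Peaks covered 10944.2 and 13410.3 kb in shALKBH5 and 12312.6 and 12607.9 kb in shGFP, with a median peak width of 533 and 509 bp in shALKBH5 and 493 and 518 bp in shGFP. The median fold enrichment, which is the signal of the immunoprecipitate over the local background at the summit of a peak as the authors deposited it, was 8.18 and 8.22 in shALKBH5 and 8.04 and 7.99 in shGFP. In nearly all peaks, the deposited fold enrichment and p together fix the number of immunoprecipitated fragments over the summit. This number had a median of 18 and 18 in shALKBH5 and 17 and 22 in shGFP. The depth of the immunoprecipitates, estimated from the lowest background value of each list and set to 1 in shGFP replicate 1, was 1.07 and 1.02 in shALKBH5 and 1.57 in shGFP replicate 2. The most deeply sequenced list was therefore an shGFP one, and it was not the longest.

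Of the 26502 regions, 43.9% were held by all 4 lists, 12.8% by 3 lists (3386 regions), 14.5% by 2 lists (3850 regions) and 28.8% by a single list (7630 regions). Single-list regions numbered 915 and 2825 in shALKBH5 replicates 1 and 2, and 2164 and 1726 in shGFP replicates 1 and 2. shALKBH5 replicate 1, the shortest list, had the fewest regions of its own, and shALKBH5 replicate 2 the most. Of its own regions, shALKBH5 replicate 1 shared 86.9% with shALKBH5 replicate 2, 83.9% with shGFP replicate 1 and 84.8% with shGFP replicate 2. shALKBH5 replicate 2 shared 68.5% with shALKBH5 replicate 1, 75.9% with shGFP replicate 1 and 74.3% with shGFP replicate 2. This replicate thus shared fewer of its regions with its own partner than with either shGFP list. The shGFP lists shared 77.8% (replicate 1) and 80.5% (replicate 2) with each other.

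**Figure D1:**
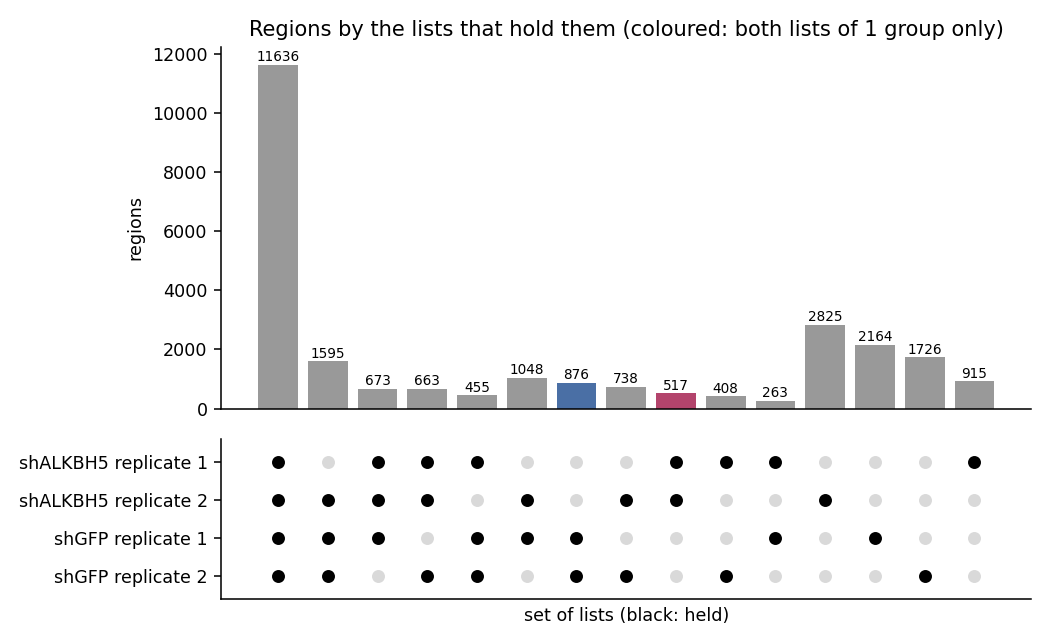
Number of regions (bars, linear axis) for each set of lists that hold them, with the set marked by black dots under each bar. The red bar is the 517 regions of both shALKBH5 lists and neither shGFP list, the blue bar the 876 regions of the reverse kind, and both are shorter than the 1048 regions held by shALKBH5 replicate 2 and shGFP replicate 1 alone.

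Regions held by both shALKBH5 lists and neither shGFP list numbered 517, which is 1.95% of all regions, and regions held by both shGFP lists and neither shALKBH5 list numbered 876, which is 3.31%. The other sets of 1 list from each group held 263, 408, 1048 and 738 regions, so both counts lay within the range of the sets that mix the groups. With 2 lists against 2 no test was made of these counts. Leaving out a list loosens these definitions, so the counts rise by construction. Without shALKBH5 replicate 1 there were 3395 shALKBH5-only and 1349 shGFP-only regions, and without shALKBH5 replicate 2 there were 1480 and 2506. Without shGFP replicate 1 the counts were 1200 shALKBH5-only and 2638 shGFP-only regions, and without shGFP replicate 2 they were 1201 and 3102. More regions were shGFP-only than shALKBH5-only in the full set, and the order turned round without shALKBH5 replicate 1. There an shALKBH5-only region needed 1 list and an shGFP-only region still needed 2, so the 2 counts are not alike in definition. With the same number of top-ranked peaks taken from each list, the counts were 568 shALKBH5-only and 627 shGFP-only regions, so most of the excess of shGFP-only regions went with that setting.

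The regions of a single group were short and weakly enriched beside the shared ones, and so were the other regions held by 2 lists. In the sets of 1 list from each group, median lengths were 425 to 458 bp and median fold enrichments 5.48 to 5.91. The median length was 455 bp for the shALKBH5-only regions and 457 bp for the shGFP-only regions, against 864 bp for regions held by all 4 lists. In the shALKBH5-only regions the median fold enrichment was 5.66 and 6.20 in the 2 shALKBH5 lists, from a median of 9 and 11 fragments over the summit. In the shGFP-only regions it was 5.99 and 6.13 in the 2 shGFP lists, from 10 and 11 fragments. Both lists of the group gave a -log10 q of at least 10 in 31 of the 517 shALKBH5-only regions and 83 of the 876 shGFP-only regions, while all 4 lists did so in 64.9% of the shared regions. A region within 1 kb of a shared one was found in 53 cases of the shALKBH5-only kind (10.3%) and 92 of the shGFP-only kind (10.5%), against 14.7% of the shared regions themselves. At 5 kb these shares were 26.7% and 24.7%, against 31.5%. The shALKBH5-only and shGFP-only kinds thus had close median lengths and enrichments and close shares near a shared region; these were not tested.

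The strongest shALKBH5-only regions, ranked by the lower -log10 q of their 2 lists, are given with their coordinates on hg38. The region chr21:8255610-8255956 had a fold enrichment of 4.42 and 5.51 in shALKBH5 replicates 1 and 2, from 77 and 72 fragments over a background of 16.6 and 12.2. The region KI270733.1:147926-148246, on a contig outside the assembled chromosome sequences, had 12.3 and 5.77, from 55 and 46 fragments. The short arm of chromosome 21 and such contigs carry repeated sequence, and reads of near-identical copies could have been split between them, so these 2 regions are uncertain. The region chr4:87125852-87126219 had 9.99 and 9.90 from 21 and 22 fragments, and lay 756 bp from a shared region. The regions chr16:11376224-11376790 (10.7 and 11.9), chr11:85503992-85504853 (14.0 and 9.93) and chr6:43348416-43348879 (6.83 and 6.81) completed the 6. All 6 had no called peak in either shGFP list, which does not show that the signal was absent there.

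The strongest shGFP-only region was chr13:68152324-68153257, with a fold enrichment of 24.0 and 21.5 in shGFP replicates 1 and 2, from 39 and 34 fragments. It lay 921956 bp from the nearest shared region. Next came chrX:130024801-130025297 (11.8 and 10.4, from 45 and 48 fragments) and chr1:234368006-234368621 (15.3 and 16.9, from 28 and 21). The regions chr8:13499341-13500201 (15.8 and 17.2), chrX:101488496-101489445 (15.1 and 19.2) and chr3:156849041-156850137 (17.2 and 15.2) followed. None had a called peak in either shALKBH5 list, and 5 of the 6 exceeded in both shGFP lists the highest value of the 6 shALKBH5-only regions, which was 14.0. These are extremes ranked from 876 shGFP-only and 517 shALKBH5-only regions. The medians of the full kinds were close, at 5.99 and 6.13 for shGFP-only and 5.66 and 6.20 for shALKBH5-only regions.

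Across the 23 chromosomes with at least 100 shared regions, the shALKBH5-only share ranged between 1.19% of the regions of chromosome 17 and 3.29% of those of chromosome 3. The shGFP-only share ranged between 1.42% on chromosome 21 and 5.56% on chromosome 13. Chromosome 3 held 55 shALKBH5-only and 51 shGFP-only regions, and chromosome 13 held 8 and 35. The shGFP-only regions were the more numerous on 20 of the 23 chromosomes, as they were over the whole set with lists of unequal length. These chromosome counts were not recomputed at equal list lengths. Runs were uncommon: 22 shALKBH5-only regions (4.26%) and 82 shGFP-only regions (9.36%) lay within 5 kb of another of their kind. Of the shared regions, 31.5% lay within 5 kb of another shared one. Such shares rise with the size of a set, and the sets differ in size, so these shares are not alike in what they measure.

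**Figure D2:**
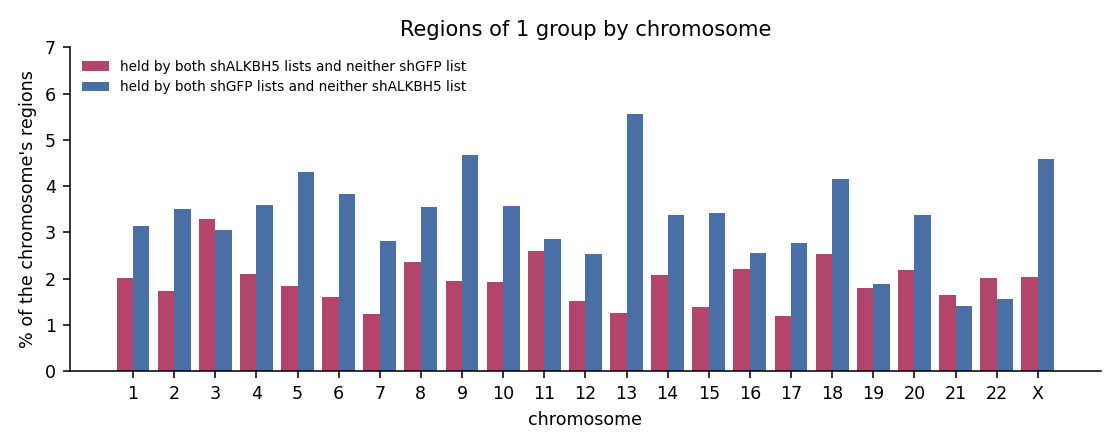
Share of the regions of each chromosome (percent, linear axis from 0) that were shALKBH5-only (red, left bar) or shGFP-only (blue, right bar). The red bars lie between 1.19 and 3.29%, the blue bars between 1.42 and 5.56%, and chromosome 13 has the tallest blue bar.

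The regions held by all 4 lists carry a value in every list, and on them enrichment, width and rank could be compared. A region enters this set only when a peak was called in each list, so it holds no region that had dropped below the calling threshold in a sample. Their median fold enrichment was 10.0 and 11.9 in shALKBH5 and 11.1 and 10.5 in shGFP, and both shGFP values lay between the shALKBH5 values. The middle 50% of regions ran between 7.07 and 15.4 in shALKBH5 replicate 1, 8.12 and 17.6 in shALKBH5 replicate 2, 7.78 and 16.5 in shGFP replicate 1, and 7.42 and 15.2 in shGFP replicate 2. The median number of fragments over the summit was 25 and 30 in shALKBH5 and 27 and 33 in shGFP, and the summed peak width in a region had a median of 656 and 707 bp in shALKBH5 and 670 and 704 bp in shGFP. On the log2 scale the list medians of fold enrichment averaged 3.45 ± 0.17 in shALKBH5 and 3.43 ± 0.06 in shGFP (SD, n = 2 lists each), a difference of 0.01 with an exact two-sided permutation p of 1. The log2 median width averaged 9.41 ± 0.08 in shALKBH5 and 9.42 ± 0.05 in shGFP (SD, n = 2 lists each), also with an exact permutation p of 1. A comparison of 2 lists with 2 cannot give a p below 0.333. In bulk RNA, methylation of more molecules per cell and methylation in more cells cannot be told apart.

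**Figure D3:**
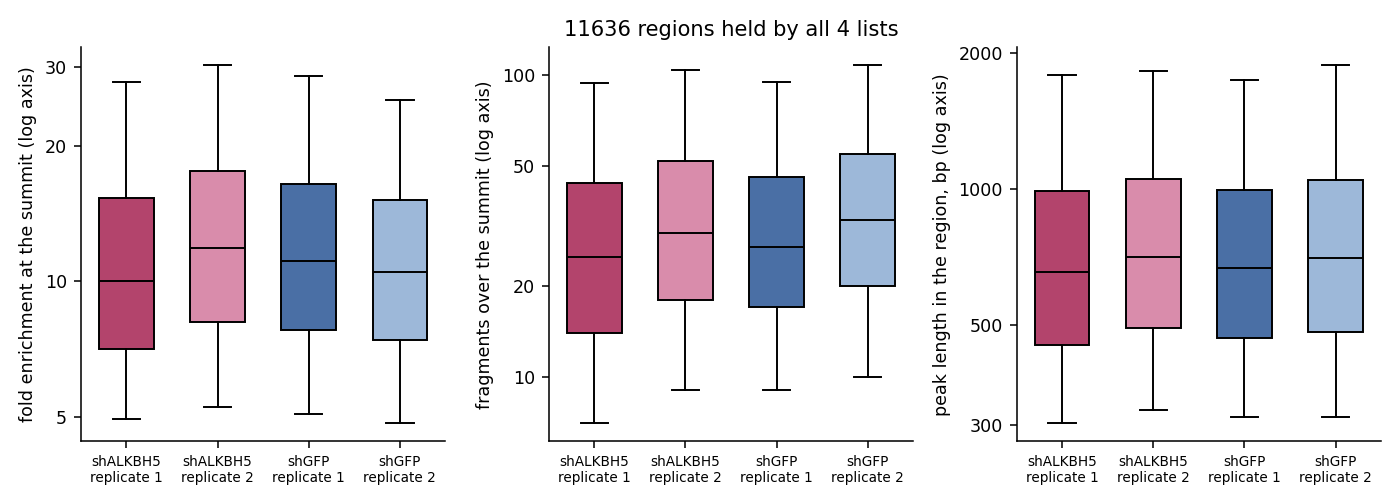
Fold enrichment, fragments over the summit and summed peak length (all log axes) of the 11636 regions held by all 4 lists, by list. Lines are medians, boxes the middle 50% and whiskers the 5th to 95th percentile of regions; the shALKBH5 medians of fold enrichment (10.0 and 11.9) enclose those of shGFP (11.1 and 10.5).

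Region by region, the shALKBH5 lists differed as much from each other as from the shGFP lists. Across the shared regions, which are not independent replicates, log2 fold enrichment correlated at 0.798 between the shALKBH5 lists and at 0.790 between the shGFP lists, and at 0.761 to 0.813 between lists of different groups. The SD of the log2 difference in fold enrichment was 0.50 between the shALKBH5 lists, 0.49 between the shGFP lists and 0.47 to 0.53 between lists of different groups. Width correlated at 0.826 within shALKBH5, at 0.852 within shGFP and at 0.821 to 0.846 across groups. The summits of a region lay a median of 31 bp apart in the shALKBH5 lists, 28 bp apart in the shGFP lists, and 28 to 33 bp apart across groups. In each of these measures the range across groups included at least 1 of the values within a group.

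Fold enrichment was tested with limma on the log2 scale, each list centred on its median, with Benjamini-Hochberg adjustment over the 11636 shared regions. At an adjusted p below 0.05, 0 regions were higher (0%) and 0 were lower (0%) in shALKBH5, and the smallest adjusted p was 0.397. At an unadjusted p below 0.05 there were 676 regions (5.81%), of which 337 were higher and 339 lower in shALKBH5. With 1 list left out, a group is a single list whose spread is taken from the other group. The calls of those fits are therefore not given. In the fits without an shALKBH5 list, limma also gave all regions a common spread (infinite prior degrees of freedom, against 16.0 in the main fit). The precision was moderate. The 95% confidence interval of a difference reached a median of 0.68 to either side on the log2 scale, a 1.60-fold change, and in 7051 regions (60.6%) the whole interval lay within a 2-fold change either way. In the other regions a 2-fold change in at least 1 direction was not excluded by the interval. An interval of a single region carries no adjustment for the number of regions, and at the adjusted threshold even the largest differences did not pass.

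The difference of shALKBH5 minus shGFP, on the centred log2 scale, had a median of 0.03 and an SD of 0.37, and 90% of the regions lay between -0.60 and 0.60. A difference of more than 1 was found in 57 regions and of less than -1 in 72. If the group labels made no difference, 2 lists would still separate from 2 in a share of 0.333 of regions, both directions together. Both shALKBH5 lists exceeded both shGFP lists in 2283 regions (19.6%), and both lay below in 1782 (15.3%). These counts were 2354 and 1578 as deposited, 2309 and 2112 on fragments alone, 2126 and 1949 after quantile normalisation and 2073 and 1956 without the pseudocount, so the size of the imbalance moved with the scaling. On the centred values, the regions of strongest enrichment held most of it. Centring leaves the spread of each list as it was. The SD of log2 fold enrichment over the shared regions was 0.78 and 0.78 in shALKBH5 and 0.76 and 0.74 in shGFP. A list of wider spread can lie higher among the strongest regions for that reason alone, and its part here was not tested. Shared regions were ranked by mean fold enrichment over the same 4 centred lists and split into 4 classes of 2909. In the highest class (geometric mean 21.7, median 58 fragments), both shALKBH5 lists were above both shGFP lists in 717 regions and below in 336, with a median difference of 0.10. In the lowest class (geometric mean 6.27, median 17 fragments) the counts were 487 and 463, with a median difference of 0.00. The lean in the highest class differed between pairs of lists: its median log2 difference was 0.20 for shALKBH5 replicate 1 minus shGFP replicate 2, and 0.00 for shALKBH5 replicate 2 minus shGFP replicate 1. The replicates of a group differed there by about as much, with 0.11 for shALKBH5 replicate 1 minus replicate 2 and 0.10 for shGFP replicate 1 minus replicate 2. Other scalings of this class, chosen after the data were seen and with its regions unchanged, kept the direction with different sizes. The counts above and below were 738 and 274 as deposited (median difference 0.11), 808 and 365 on fragments alone (0.07), 604 and 408 without the pseudocount (0.07) and 575 and 472 after quantile normalisation (0.02).

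**Figure D4:**
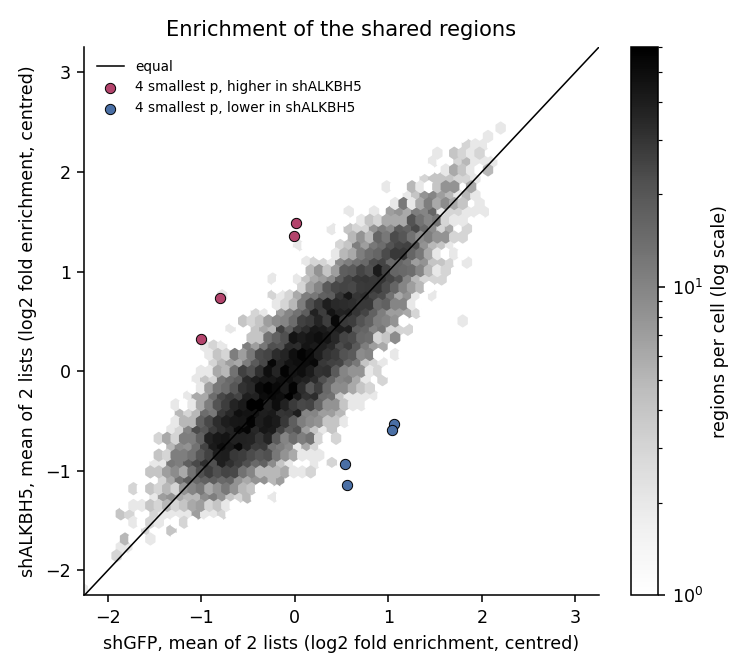
Mean centred log2 fold enrichment of each of the 11636 shared regions in shALKBH5 (vertical axis, 2 lists) against shGFP (horizontal axis, 2 lists), shaded by the number of regions on a log scale. The cloud follows the line of equal values, and the coloured points are the 4 regions with the smallest p in each direction, none of which passed the adjusted threshold.

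The 4 regions with the smallest p on the higher side did not pass. The region chr10:133476652-133477214 had a fold enrichment of 14.4 and 22.7 in shALKBH5 and 6.96 and 5.56 in shGFP, from 22 and 31 against 8 and 15 fragments. Both shALKBH5 lists lay above both shGFP lists, with a log2 difference of 1.53 ± 0.32 (SE; 95% interval 0.85 to 2.20; limma adjusted p = 0.397). The region chrX:6973163-6974459 had 23.9 and 32.7 in shALKBH5 and 11.7 and 9.90 in shGFP, from 30 and 45 against 13 and 12 fragments (limma adjusted p = 0.467). Its width gave no such order, at 701 and 858 bp in shALKBH5 and 1116 and 805 bp in shGFP. The region chr16:89722323-89723777 had 38.7 and 24.1 in shALKBH5 and 13.0 and 9.09 in shGFP (limma adjusted p = 0.487). There the local background moved as well as the fragments: it was 1.07 and 2.86 in shALKBH5 and 2.68 and 6.26 in shGFP, and the fragments were 79 and 92 in shALKBH5 and 47 and 65 in shGFP. Its log2 difference was 1.48 in fold enrichment and 0.75 on fragments alone (limma adjusted p = 0.522). The region chrX:129588207-129588931 had 10.2 and 18.2 in shALKBH5 and 5.62 and 5.17 in shGFP (limma adjusted p = 0.487). All 4 had more fragments in both shALKBH5 lists than in either shGFP list. Fragments enter the fold enrichment by which the 4 were picked, so their order is not separate support.

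The 4 regions with the smallest p on the lower side did not pass either. The region chr12:7080504-7080942 had a fold enrichment of 4.93 and 4.97 in shALKBH5 and 20.4 and 12.3 in shGFP, from 5 and 5 against 24 and 19 fragments. Its log2 difference of -1.69 ± 0.33 (SE; 95% interval -2.39 to -0.998; limma adjusted p = 0.397) was the lowest of all shared regions. The region chr3:192408128-192409925 had 5.75 and 9.93 in shALKBH5 and 22.9 and 22.2 in shGFP, from 6 and 11 against 27 and 31 fragments. The region chr18:1362638-1363238 had 9.04 and 5.79 in shALKBH5 and 25.8 and 19.1 in shGFP, from 10 and 6 against 42 and 48 fragments. Its local background was 0.216 and 0.208 in shALKBH5 and 0.670 and 1.56 in shGFP, so its log2 difference of -1.63 moved to -0.41 without the pseudocount of the peak caller (limma adjusted p = 0.954) and to -2.41 on fragments alone (limma adjusted p = 0.501). The region chr15:75687331-75688954 had 4.93 and 6.62 in shALKBH5 and 18.8 and 13.0 in shGFP, from 5 and 7 against 22 and 16 fragments. Each of the last 3 also had a limma adjusted p of 0.397, and in all 4 regions the groups did not overlap. In both shALKBH5 lists the local background of all 4 was at the lowest value the list allows (0.216 and 0.208), so few input reads lay there. In shGFP, where the lowest values were 0.200 and 0.305, it was also low in most. It was 0.223 and 0.626 at chr12:7080504-7080942, 0.223 and 0.441 at chr3:192408128-192409925, and 0.223 and 0.305 at chr15:75687331-75688954. The part of the amount of RNA in these differences was not tested.

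**Figure D5:**
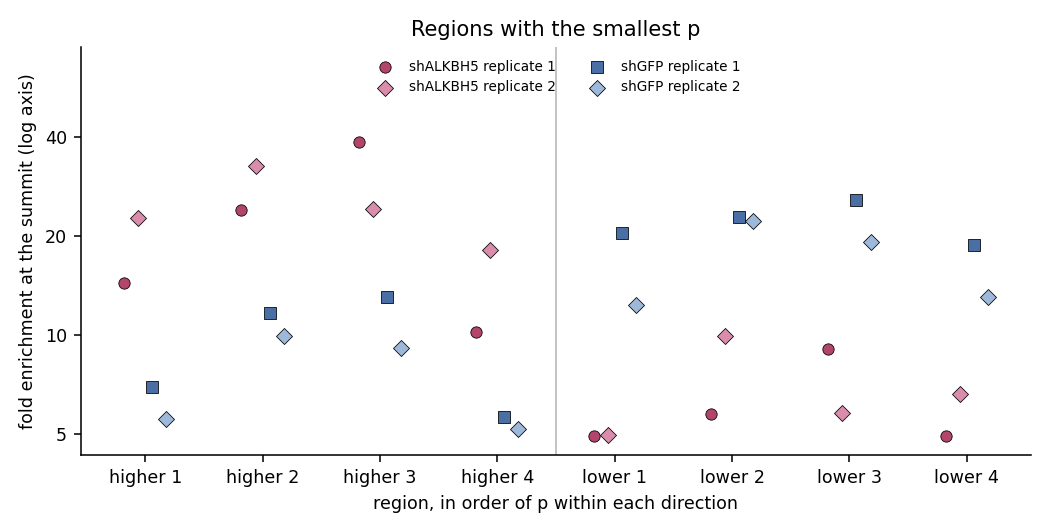
Fold enrichment at the summit (log axis) in each of the 4 lists for the 4 regions with the smallest p higher in shALKBH5 (higher 1 to 4) and the 4 lower (lower 1 to 4), in the order of the text. In all 8 regions the shALKBH5 points (red and pink) lie on 1 side of the shGFP points (blue), and none passed the adjusted threshold. The regions were picked by p on these same values, so that order is not separate support.

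Local background, which follows the input signal around a peak, was tested in the same way, and 0 regions passed (0%), with a smallest limma adjusted p of 0.504. At an unadjusted p below 0.05 there were 846 regions, 349 with a higher and 497 with a lower background in shALKBH5.

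The extent of the m6A signal was measured as the summed width of the peaks of a list in a region. By limma on log2 width, 0 of 11636 regions were wider (0%) and 0 narrower (0%) in shALKBH5 at an adjusted p below 0.05, the smallest being 0.590. At an unadjusted p below 0.05 there were 322 wider and 353 narrower regions. Both shALKBH5 lists were wider than both shGFP lists in 2073 regions (17.8%) and narrower in 1793 (15.4%). The share of 0.333 that arises with labels of no effect applies to these counts together only if the lists are otherwise alike. Widths were not centred here. The smallest width a list can hold was also larger in both shALKBH5 lists (294 and 295 bp) than in both shGFP lists (291 and 282 bp). With each list centred on its median width, the counts were 1982 wider and 1691 narrower. The interval of a width difference reached a median of 0.50 to either side on the log2 scale, and in 8298 regions (71.3%) it lay within a 2-fold change either way. Most shared regions, 9965 of 11636 (85.6%), had 1 peak in each list.

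Among the regions with the smallest p for width, all with a limma adjusted p of 0.590, chr5:171005120-171006555 had the largest increase. Its peaks spanned 1423 and 1436 bp in shALKBH5 and 437 and 463 bp in shGFP, a log2 difference of 1.67 ± 0.11 (SE). Its fold enrichment followed the same order, at 14.6 and 17.9 in shALKBH5 and 8.17 and 8.11 in shGFP. The region chr9:110407192-110408005 spanned 813 and 785 bp in shALKBH5 and 308 and 306 bp in shGFP, while its fragments over the summit were 12 and 12 in shALKBH5 and 11 and 9 in shGFP. Its fold enrichment was 10.7 and 10.8 in shALKBH5 and 9.81 and 7.66 in shGFP. That is the same order as its width, with a log2 difference of 0.29 in fold enrichment and 1.38 in width. The regions chr2:171350160-171351305 (1097 and 1052 against 352 and 398 bp) and chr8:144498690-144499490 (711 and 771 against 291 and 282 bp) had the same order. In chr8:144498690-144499490 both shGFP widths were the smallest their lists can hold, which bears on the size of its difference.

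On the narrower side, chr3:168425097-168426020 spanned 294 and 295 bp in shALKBH5 and 825 and 905 bp in shGFP, a log2 difference of -1.55 ± 0.11 (SE). The region chr20:59933912-59934630 spanned 294 and 295 bp in shALKBH5 and 680 and 680 bp in shGFP. The regions chr1:27724828-27725626 (296 and 295 against 717 and 692 bp) and chr7:27192915-27193650 (299 and 295 against 721 and 649 bp) were alike. In all 4 the shALKBH5 peaks were at or within a few bases of the smallest width the list can hold (294 and 295 bp in shALKBH5, 291 and 282 bp in shGFP). That floor was set by the fragment length of each list and was reached by 308 and 129 of the shared regions in shALKBH5 and 164 and 124 in shGFP. Of the regions with an unadjusted p below 0.05, 91 were so for both fold enrichment and width, and in 88 of these both moved in the same direction. Both measures come from the same fragments, and across all shared regions their differences correlated at 0.356.

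Rank was taken by fold enrichment among the shared regions only, so that all lists have the same length, and is given as a percentile. A region moved by a median of 10.9 percentile points between the shALKBH5 lists, 11.1 between the shGFP lists and 10.2 to 12.1 across groups. It moved by more than 20 points in 26.4% of regions within shALKBH5, 27.1% within shGFP and 24.2 to 31.0% across groups. Both shALKBH5 lists ranked a region at least 10 points above both shGFP lists in 621 cases (5.34%), and at least 10 points below in 662 (5.69%).

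The widest gap upward was at chr10:133476652-133477214, at percentiles 71.6 and 86.6 in shALKBH5 and 18.5 and 9.22 in shGFP. The region chr11:118996279-118997180 was at percentiles 54.9 and 56.4 in shALKBH5 and 6.30 and 3.74 in shGFP, and chrY:11168151-11168658 at 62.7 and 71.4 in shALKBH5 and 9.66 and 13.8 in shGFP. Chromosome Y held only 21 regions, 3 of them shared, and the source of the reads placed there was not tested, so its region is uncertain. In chr5:1037612-1039084, at 71.9 and 77.0 in shALKBH5 and 27.5 and 11.4 in shGFP, the fragments of the groups overlapped, with 28 and 35 in shALKBH5 and 34 and 47 in shGFP. Its background was 1.00 and 0.963 in shALKBH5 and 3.35 and 7.20 in shGFP, higher in both shGFP lists. The widest gap downward was at chr3:189052629-189052949, at percentiles 5.37 and 7.18 in shALKBH5 and 65.4 and 69.2 in shGFP, from 5 and 7 against 16 and 17 fragments. The region chr5:43039457-43040301 was at 12.8 and 7.90 in shALKBH5 and 65.0 and 76.5 in shGFP. The others were chr12:7080504-7080942 and chr15:75687331-75688954, whose fragments are given above.

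Neither the 4 broadest nor the 4 strongest shared regions passed the test for enrichment or width. The widest shared region was chr9:40904996-40915780, 10785 bp long, with 9359 and 9130 bp of peaks in shALKBH5 and 10103 and 10773 bp in shGFP. Its fold enrichment was 16.2 and 15.7 in shALKBH5 and 15.5 and 13.9 in shGFP. The region chr8:143915638-143922484 (6847 bp) had 24.6 and 23.4 in shALKBH5 and 23.4 and 17.9 in shGFP. The regions chr4:125314859-125321674 (30.8 and 40.2 in shALKBH5, 36.8 and 24.8 in shGFP) and chr3:49651347-49658126 (31.6 and 20.6 in shALKBH5, 29.2 and 28.7 in shGFP) varied as much within a group as between groups.

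The highest mean fold enrichment was at chr6:142752931-142753892, with 76.1 and 73.3 in shALKBH5 and 39.8 and 61.4 in shGFP. Its log2 difference was 0.58 ± 0.34 (SE; 95% interval -0.12 to 1.29; limma adjusted p = 0.889), and its fragments were 111 and 134 in shALKBH5 and 110 and 120 in shGFP. The region chr12:82895588-82896623 had 65.3 and 64.3 in shALKBH5 and 45.5 and 62.4 in shGFP. The region chr7:135185578-135186488 had 51.2 and 57.4 in shALKBH5 and 69.7 and 51.5 in shGFP, and chr20:35947262-35948399 had 58.4 and 61.1 in shALKBH5 and 72.9 and 34.9 in shGFP. In the last region the fragments were 133 and 135 in shALKBH5 and 137 and 143 in shGFP, nearly equal in all 4 lists, while the fold enrichment of the shGFP lists differed by more than that of the shALKBH5 lists.

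The spread of fragments over the summit between replicates was set beside the Poisson spread for the same counts. In the lowest of the 4 enrichment classes the SD of the log2 difference between replicates was 0.52 in shALKBH5 and 0.47 in shGFP, against a counting SD of 0.56 and 0.52. In the highest class it was 0.39 in shALKBH5 and 0.31 in shGFP, against 0.29 and 0.28. Since a region needs a peak in all 4 lists, low counts are cut off in the lowest class, which narrows the spread there, and reads of unstated duplicate handling are not independent molecules. The values of the lowest class therefore say nothing on counting error.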

How the data were processed

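Peak lists of 4 immunoprecipitate and input pairs were used as deposited, in the narrowPeak layout of MACS2. The submitters' processing notes name MACS2 2.1.1, HISAT2 2.1.0, SAMtools 1.7 and build hg38, among others, without their roles. The deposited columns are fold enrichment (a ratio at the summit), -log10 p and -log10 q (smallest values show a q threshold of 0.05) and an integer score of the authors, not used. Fold enrichment is (fragments + 1) over (background + 1), and solving it with the Poisson -log10 p gave whole fragments in 100% of peaks (within 0.001). A second whole number also fitted within 0.001 in 39 and 24 peaks of shALKBH5 and 65 and 20 of shGFP, where the closer fit was used. Fragments over the summit ran between 5 and 85 and between 5 and 87 (5th to 95th percentile) in shALKBH5, and between 5 and 80 and between 7 and 94 in shGFP, which limits precision. How duplicate reads were handled is unstated there.

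Peaks sharing 1 bp or more were merged. The largest fold enrichment and the summed width per list entered limma 3.58.1 (R 4.3.3; Benjamini-Hochberg, adjusted p below 0.05); code was tested on simulated data. Alternatives changed centring, block, q, list length, overlap, lists and replicates. Regions were named by rule: the 4 smallest p per direction for fold enrichment and width (called ones would have come first), the 6 strongest of each single-group kind, the 4 widest and 4 highest shared regions and the 4 largest rank gaps per direction. The members, rules and lists were chosen with earlier results of these data known. No human genome or annotation was used here, so regions carry no gene names or sequences, and the planned gene lists and motif search were left out. Tables were made in Python 3.11.15 with scipy 1.17.1.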

Additional observations from a re-analysis of the deposited data

How the results depend on the processing

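Width calls by limma stayed at 0 under every alternative with 2 lists in each group. Fold enrichment calls stayed at 0 under other centring, quantile normalisation, single-peak regions, an intensity trend, stricter q, all 6 HEK293T lists, fragments alone and no pseudocount. With each replicate left out, fold enrichment calls ranged between 0 and 13. These fits take the spread of the lone list from the other group. In these fits chr16:89722323-89723777 (log2 difference 1.93) and chr3:192408128-192409925 (-1.87) passed without shALKBH5 replicate 2, and chr18:1362638-1363238 (-2.06) without shALKBH5 replicate 1. With a replicate block, limma called 0 regions in fold enrichment (690 at an unadjusted p below 0.05, smallest adjusted p 0.358) and 0 in width. Same-numbered replicates did not deviate together: their differences correlated at -0.05 in fold enrichment and -0.11 in width, and 2 pairs cannot show pairing. The crossed pairing, added after the data were seen, gave 15 fold enrichment calls (5 higher, 10 lower) and 0 width calls. In that fold enrichment fit limma gave all regions a common spread, which the main fit did not.

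With each replicate left out, shALKBH5-only regions ranged between 1200 and 3395, shGFP-only regions between 1349 and 3102, regions ranked higher in shALKBH5 between 1709 and 1928 and regions ranked lower between 1689 and 1867. A single list then stands for a group, which loosens these definitions. Stricter q, equal list lengths, other merging, 50% cover and a 500 bp margin kept every count within 1.5 times, with 423 to 671 shALKBH5-only and 627 to 1003 shGFP-only regions. Equal list lengths brought them closest, at 568 and 627. With 50% cover, chr3:156849041-156850137 was no longer shGFP-only. The difference of list medians in log2 fold enrichment was -0.10 without shALKBH5 replicate 2 and 0.12 without shALKBH5 replicate 1, against 0.01. Few fragments and 2 lists a group limit what could be detected.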

Other observations

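The mitochondrial genome, whose transcripts are abundant, held 11 regions, with a fold enrichment of 1.56 to 4.82. shALKBH5 replicate 1 had a peak in all 11, shALKBH5 replicate 2 in 2, shGFP replicate 1 in 9 and shGFP replicate 2 in 7. The region chrM:1764-3068 was held by all 4 lists, at 3.89 and 2.74 in shALKBH5 and 3.33 and 2.51 in shGFP, and so was chrM:5925-7293, at 2.29 and 2.09 in shALKBH5 and 2.53 and 1.69 in shGFP. These values were seen before they were chosen for mention.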
